A study of Homo sapiens with 18 samples.

Results

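The interleukin-1 family is described here in THP-1, a monocyte-like line derived from a human leukaemia, through 10 genes taken by name: the ligands IL1A, IL1B, IL18 and IL36G, the receptor antagonist IL1RN, the receptors IL1R1 and IL1RAP, and the inhibitors IL1R2, IL18BP and SIGIRR. All 10 were found among the 57500 genes counted, each as 1 gene. Poly(A) RNA was sequenced from 3 lines that stably carried a short hairpin RNA under puromycin selection: shNT, with a non-targeting hairpin, and shNR4A2 and shNR4A3, with hairpins against the nuclear receptor genes NR4A2 and NR4A3. Each line was sampled without lipopolysaccharide (control) and after 2 h with 2.5 μg/ml lipopolysaccharide (LPS), the bacterial agonist of TLR4, with 3 libraries in each of the 6 groups and 16171161 to 23929138 counted fragments per library. All cells, controls included, carried a hairpin vector, and each hairpin is represented by a single line, so that the hairpin and the line cannot be told apart. The labels number the libraries of a group, and the study describes them as independent experiments, which the labels do not state, so the p-values measure the spread between these libraries.

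IL-1α and IL-1β are agonists of the same receptor, IL1R1, which signals together with the accessory chain IL1RAP, while IL-1Ra, the product of IL1RN, occupies IL1R1 without signalling. IL1R2 is a decoy receptor without a signalling domain, IL18BP is a secreted protein that sequesters IL-18, and SIGIRR is a single-domain receptor that dampens signalling from the family. In monocytes IL1B is a classic early target of TLR4, whereas the IL18 transcript is known for being present before stimulation. IL-1β and IL-18 are made as precursors that inflammasome caspases cleave, so transcript levels say nothing of the released cytokine.

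The cells carried monocyte transcripts. All 10 monocyte markers had counts, and their summed level was between 1674 and 4084 TPM (transcript abundance, as counts per gene length scaled to the same total in each library). SPI1 was at 532 to 1132 TPM. CEBPA lay above SPI1 in every control library (means of 1102 against 571 TPM in shNT) and below it in every LPS library (219 against 748 TPM in shNT). The summed levels of the T cell, B cell, erythroid, epithelial and fibroblast markers were at most 6.83, 13.6, 0.477, 0.806 and 0.948 TPM, respectively. The neutrophil list summed to 42.3 to 82.0 TPM, mostly CSF3R at 37.7 to 59.9 TPM. In these bulk libraries, fewer cells expressing a gene and less RNA per cell cannot be told apart.

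The hairpin targets were lower in their own lines. NR4A2 was at 4.16, 2.83 and 4.08 TPM in shNT control libraries and at 1.82, 1.63 and 2.41 TPM in shNR4A2 control libraries, a log2 fold change of -0.91 (SE 0.23, adjusted p = 0.0359), and with LPS the difference was -1.52 (SE 0.19, adjusted p = 0.00265). NR4A3 was at 0.556, 0.693 and 0.512 TPM in shNT control libraries and at 0.158, 0.107 and 0.0315 TPM in shNR4A3 control libraries, a log2 fold change of -2.47 (SE 0.49, adjusted p = 0.00767), and with LPS it was -0.82 (SE 0.08, adjusted p = 0.000556). Libraries with and without the hairpin did not overlap in any of these comparisons. With LPS, NR4A2 was also lower in shNR4A3 than in shNT libraries of the same number (41.8, 60.7 and 38.3 against 62.2, 74.7 and 51.3 TPM). These groups overlapped, and NR4A2 was not called in the main fit. It was called when the replicate number was kept as a block, a term that takes out what same-numbered libraries share.

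Without LPS, the family was expressed at modest levels. In shNT control cells SIGIRR (27.4 ± 3.50 TPM, SD, n = 3), IL1B (24.3 ± 4.21 TPM), IL1RN (23.3 ± 2.76 TPM) and IL1RAP (22.8 ± 2.84 TPM) led, and each overlapped the next in this order. IL18 (13.5 ± 2.68 TPM), IL18BP (6.41 ± 0.557 TPM) and IL1R1 (2.14 ± 0.490 TPM) followed, each apart from the one before in every library. IL1A, at 1.75 ± 0.534 TPM, overlapped IL1R1. The decoy receptor IL1R2 had 2 counts and IL36G none over the 3 shNT control libraries. With LPS the order changed at the top, where IL1B and then IL1A stood above IL1RN in every library of all 3 lines, while IL1RAP and SIGIRR overlapped each other in each line. The plot of TPM by library shows this gap for the IL-1 agonists beside the narrow bands of IL18 and the receptors.

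**Figure D1:**
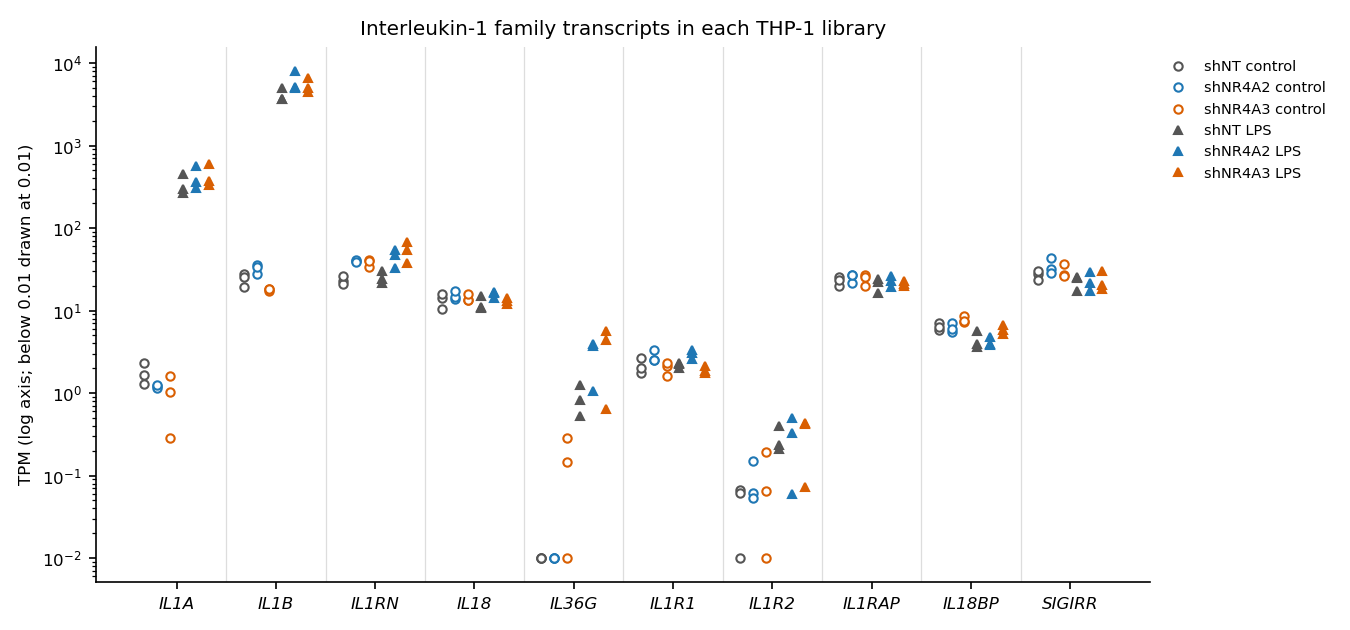
TPM on a log axis for the 10 genes in each of the 18 libraries, with open circles for control, filled triangles for LPS and a colour for each line. IL1A and IL1B with LPS lie far above their controls, IL36G is at or near 0 without LPS, and IL18, IL1R1, IL1RAP and SIGIRR overlap between control and LPS in each line.

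LPS raised the transcripts of both IL-1 agonists in all 3 lines. IL1B was at 27.6, 19.6 and 25.9 TPM in shNT control libraries and at 4935, 3686 and 3715 TPM with LPS. The corresponding values were 35.6, 28.0 and 33.5 against 7943, 5137 and 4963 TPM in shNR4A2 cells. In shNR4A3 cells they were 17.5, 18.05 and 18.3 against 6508, 4415 and 5055 TPM. Every LPS library was thus far above every control library, and replicate 1 was the highest of the LPS libraries in each line. The log2 fold changes of IL1B were 7.62 (SE 0.17, adjusted p = 5.39e-13) in shNT, 7.82 (SE 0.26, adjusted p = 6.99e-10) in shNR4A2 and 8.45 (SE 0.20, adjusted p = 6.64e-10) in shNR4A3 cells, or 197-, 225- and 350-fold. With LPS, IL1B took 0.314% to 0.701% of all counts in a library and ranked between 6 and 14 among genes by count, compared with ranks of 6276 to 8359 without LPS.

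IL1A, which encodes the agonist that is active as a precursor, rose as steeply from a lower level. Its shNT control libraries held 1.65, 1.27 and 2.33 TPM and the LPS libraries 456, 295 and 267 TPM. In shNR4A2 cells it went from 1.23, 1.17 and 1.24 to 563, 358 and 307 TPM. In shNR4A3 cells it went from 0.282, 1.60 and 1.03 to 596, 337 and 371 TPM. The groups did not overlap in any line, but the control values rest on few counts, with 59, 46 and 29 over the 3 control libraries of shNT, shNR4A2 and shNR4A3. The log2 fold changes were 7.80 (SE 0.25, adjusted p = 2.44e-11), 8.66 (SE 0.31, adjusted p = 1.27e-09) and 9.07 (SE 0.38, adjusted p = 2.75e-08), respectively, and the ratio of IL1A to IL1B with LPS was between 0.0618 and 0.0923 in all 9 libraries.

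IL1A and IL1B are encoded on the minus strand of chromosome 2 (GRCh38), IL1A (ENSG00000115008) at chr2:112773915-112784590 and IL1B (ENSG00000125538) at chr2:112829751-112836903, and IL1RN (ENSG00000136689) lies on the plus strand at chr2:113107214-113134016. IL36G lies between them at chr2:112973203-112985665, and IL1R2 (chr2:101991844-102028544) and IL1R1 (chr2:102064544-102179874) form a separate pair on the same chromosome. IL1RAP is at chr3:190514051-190659750, and IL18 (chr11:112143251-112164117), IL18BP (chr11:71998541-72005715) and SIGIRR (chr11:405716-417455) are on chromosome 11. Because both agonist transcripts rose together and IL1RN changed far less, the sequence upstream of a single RefSeq start (GRCh38.p14) of each gene is shown, cut to the bases that lie in no annotated exon of the same gene. Positions count from the RefSeq start, with -1 as the base before it, and capitals mark a match to a searched motif. The printed IL1A stretch (chr2:112784591-112784743, positions -250 to -98 of the start at 112784493) holds TATAAA, the IL1B stretch (chr2:112836904-112837029, positions -250 to -125 of the start at 112836779) holds the C/EBP motif TTGCNNAA, and the printed IL1RN stretch (chr2:113117721-113117892, positions -250 to -79 of the start at 113117971) holds the AP-1 motif TGAGTCA. The stretches cut in the same way from the IL1A start at 112784400 and the IL1RN starts at 113127489 and 113127598 hold no match to a searched motif and are not printed.
IL1A upstream: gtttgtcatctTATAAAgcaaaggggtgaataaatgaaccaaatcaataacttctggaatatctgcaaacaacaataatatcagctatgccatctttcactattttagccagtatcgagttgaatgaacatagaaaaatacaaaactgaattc
IL1B upstream: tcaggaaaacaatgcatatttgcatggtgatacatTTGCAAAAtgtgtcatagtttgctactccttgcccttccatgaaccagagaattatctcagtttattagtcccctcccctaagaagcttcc
IL1RN upstream: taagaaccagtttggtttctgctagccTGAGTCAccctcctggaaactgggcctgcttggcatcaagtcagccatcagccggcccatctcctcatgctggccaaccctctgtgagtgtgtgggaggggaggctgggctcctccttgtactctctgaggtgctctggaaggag
Closer to the start, IL1A holds the AP-1 motif at -12 on the opposite strand (chr2:112784489-112784515) and a further one that begins at -55 of a second start at 112784400 (chr2:112784439-112784465), and IL1RN holds TATAAA at -30 of another start at 113127598 (chr2:113127558-113127583).
IL1A first AP-1 match: cgaagaagacTGACTCAggcttaagct
IL1A next AP-1 match: cattggcgttTGAGTCAgcaaaggtat
IL1RN TATA match: actatttcttTATAAAccacaactct
These matches are a description of letters, not of sites in use. Windows from 250 bases before to 50 after a start were given for 9 of the 10 genes, as 19 windows, and both strands were searched. Among all 35116 RefSeq windows, 4.95% held TGAGTCA, 11.5% TATAAA, 10.5% TTGCNNAA and 11.3% the NF-κB consensus, which was matched in an IL1R2 window and in none of IL1A, IL1B or IL1RN. Neither the NBRE octamer AAAGGTCA, the element that NR4A monomers bind (1.22% of all windows), nor the CRE TGACGTCA (1.85%) was matched in a window of these genes.

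IL36G, the epithelial and myeloid agonist of the IL-36 receptor, was seen almost only with LPS. It had 0 counts in all shNT and shNR4A2 control libraries and 2, 0 and 1 counts in those of shNR4A3. With LPS the counts were 10, 4 and 7 in shNT, 27, 8 and 30 in shNR4A2, and 42, 4 and 36 in shNR4A3 cells. Every LPS library was above every control library of its line, and replicate 2 was the lowest in each line. Relative to a floor of 3 counts over the control group, IL36G was at least 6.51-fold higher with LPS in shNT and at least 24.7-fold higher in shNR4A2 cells. In shNR4A3 cells, 82 against 3 counts gave a ratio of 25.4 (95% interval 8.38 to 126, exact binomial, counting error only). The gene did not reach the low-count filter in the LPS comparisons and so has no call in the main edgeR fits. The fits that kept it called it higher in the 3 lines, with adjusted p = 0.00723, 1.44e-06 and 9.42e-05 in DESeq2, 0.000562, 8.73e-15 and 5.80e-13 in edgeR without the filter, and 0.0279, 0.000606 and 0.00154 in edgeR with all 18 libraries in 1 fit.

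IL18 moved little. It was at 14.1, 10.5 and 15.8 TPM in shNT control and 14.9, 11.04 and 10.9 TPM in shNT LPS libraries, which overlapped, with a log2 fold change of 0.09 (approximate 95% interval -0.24 to 0.42, adjusted p = 0.758). The mean TPM, which lacks the library scaling of the fit, was lower with LPS (12.3 against 13.5). The changes in shNR4A2 (0.33, adjusted p = 0.179) and shNR4A3 cells (0.10, adjusted p = 0.629) did not pass the test either.

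IL1RN, the gene of the antagonist, changed far less with LPS than the agonists. It was at 22.8, 20.8 and 26.3 TPM in shNT control and 30.1, 21.3 and 24.3 TPM in shNT LPS libraries. In shNR4A2 cells it was at 39.6, 41.5 and 38.9 against 54.1, 32.9 and 46.8 TPM. In shNR4A3 cells it was at 41.5, 33.8 and 40.1 against 67.6, 37.3 and 54.0 TPM. Control and LPS libraries overlapped in each line, with LPS replicate 2 the lowest of its group each time. With all libraries, IL1RN was called higher with LPS in shNR4A3 cells, by 0.70 (SE 0.21, adjusted p = 0.0265), and this call was lost without shNR4A3 control replicate 2 or 3 or LPS replicate 1 or 3, with values of 0.46 to 0.73. In shNT (0.34, adjusted p = 0.0869) and shNR4A2 cells (0.44, adjusted p = 0.127) it was not called, but without LPS replicate 2 it was called in both, by 0.48 (adjusted p = 0.0188) and 0.67 (adjusted p = 0.00511), and keeping the replicate number as a block, a term that takes out what same-numbered libraries share, called it in shNT cells (0.33, adjusted p = 0.0255). The difference of the LPS response between shNR4A3 and shNT cells was 0.36 (approximate 95% interval -0.19 to 0.91, adjusted p = 0.999).

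With all libraries and no block, none of the receptors and inhibitors that were tested passed the test with LPS in any line. IL1R1, the signalling receptor of IL-1, stayed at 1.63 to 3.35 TPM over all libraries, and IL1RAP, the shared accessory chain, at 16.4 to 27.0 TPM. Their LPS log2 fold changes ran from 0.16 to 0.38 and from 0.05 to 0.13. The mean TPM of IL1RAP was lower with LPS in shNT (20.9 against 22.8), shNR4A2 (22.8 against 25.1) and shNR4A3 cells (21.3 against 24.1). That of IL1R1 was lower in shNR4A3 cells only (1.91 against 2.02). These signs differ because TPM lack the library scaling of the fits. SIGIRR was at 28.1, 30.4 and 23.6 TPM in shNT control and 25.2, 25.2 and 17.1 TPM in shNT LPS libraries, which overlapped. In shNR4A2 cells SIGIRR was at 32.3, 43.4 and 28.3 against 21.4, 29.1 and 17.2 TPM, a log2 fold change of -0.36 (SE 0.20, adjusted p = 0.228) that was called with the replicate block (-0.36, adjusted p = 0.0245).

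In TPM, IL18BP was lower with LPS in every library of all 3 lines, but it was not called with all libraries. It was at 6.99, 5.88 and 6.38 TPM in shNT control and 5.68, 3.92 and 3.61 TPM with LPS, a log2 fold change of -0.33 (SE 0.19, adjusted p = 0.234) that became -0.54 and was called without LPS replicate 1 (adjusted p = 0.0432). The corresponding changes were -0.30 (adjusted p = 0.335) in shNR4A2 and -0.16 (adjusted p = 0.523) in shNR4A3 cells, each without overlap of the TPM values. The fits scale the libraries otherwise than TPM and gave smaller falls. The fitted folds were 0.798, 0.814 and 0.894 in shNT, shNR4A2 and shNR4A3 cells, beside TPM ratios of 0.686, 0.676 and 0.764. Whether the libraries stayed apart under the scaling of the fits was not tested. IL18BP overlaps NUMA1 on the opposite strand, which had 61231 counts over the 18 libraries against 2435 for IL18BP, and as the strand setting of the counting is not given, reads of both genes may not have been told apart. IL1R2 stayed close to its floor, with 15 against 2, 15 against 5 and 16 against 4 counts (LPS against control, 3 libraries each) in shNT, shNR4A2 and shNR4A3 cells, ratios of 6.97 (95% interval 1.62 to 62.9), 3.42 (1.18 to 12.02) and 3.71 (1.20 to 15.3) that cover counting error only.

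Of the 10 genes, 8 passed the low-count filter in the LPS comparisons, and of these 2 were called higher in shNT, 2 in shNR4A2 and 3 in shNR4A3 cells, with none lower. Among all genes tested, 24.9%, 19.3% and 28.1% were called in the 3 lines and 11.6%, 9.23% and 13.1% were called higher, so that the number called among these genes is not far from that of genes at large and what sets IL1A and IL1B apart is the size of their change. Only 4.42%, 5.26% and 6.17% of the genes were called higher by at least 2-fold. The median log2 fold change of the 8 genes was 0.18, 0.35 and 0.13, beside -0.01, -0.02 and -0.01 for all genes tested.

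**Figure D2:**
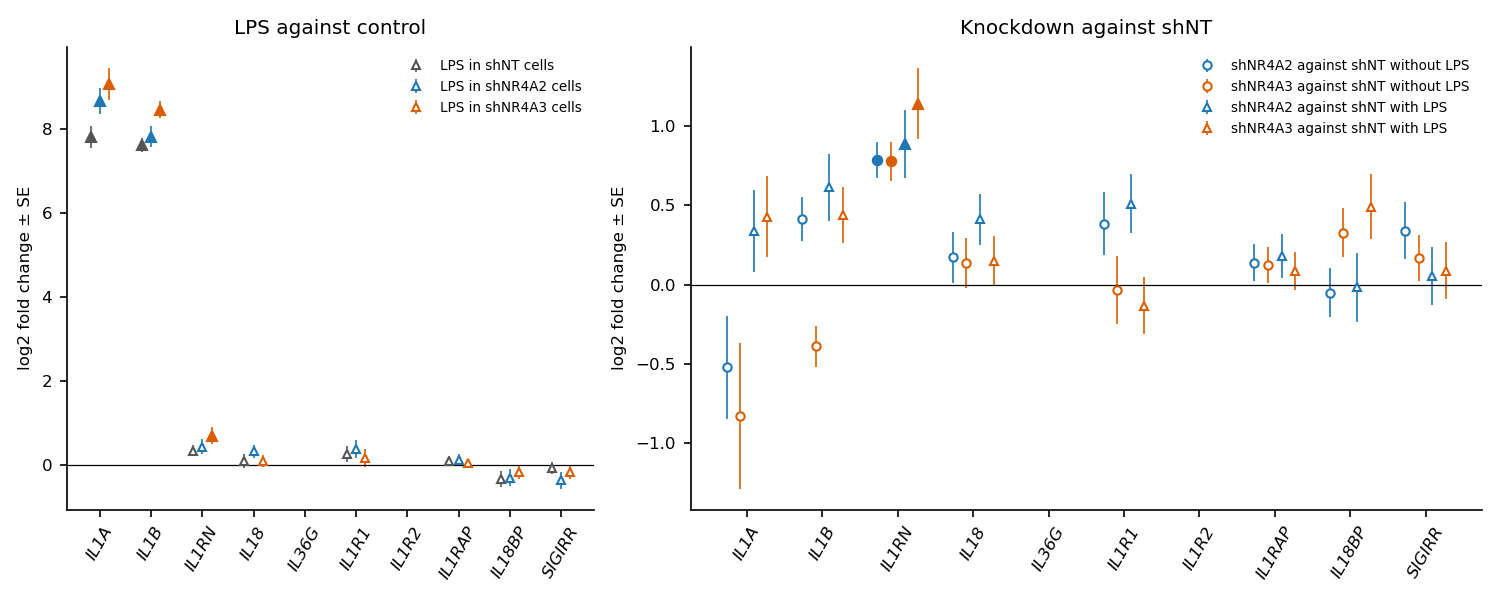
Log2 fold change with its SE for LPS against control in each line (left) and for each knockdown line against shNT (right), with filled symbols for adjusted p under 0.05. IL1A and IL1B reach 7.62 to 9.07 with LPS, and IL1RN is the gene called in all 4 knockdown comparisons. IL36G and IL1R2 did not pass the low-count filter in these comparisons and have no symbol.

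The antagonist was higher in both knockdown lines than in shNT cells. Without LPS, IL1RN was at 22.8, 20.8 and 26.3 TPM in shNT, at 39.6, 41.5 and 38.9 TPM in shNR4A2 and at 41.5, 33.8 and 40.1 TPM in shNR4A3 libraries. Both knockdown lines lay above shNT in every library and overlapped each other. IL1RN was higher by 0.78 in shNR4A2 (SE 0.11, adjusted p = 0.00213, 1.72-fold) and by 0.78 in shNR4A3 cells (SE 0.12, adjusted p = 0.00175, 1.72-fold), and both calls held whichever library was left out. It was the 1 gene called of 8 tested in each comparison, where 6.45% and 7.23% of all genes tested were called (3.63% and 3.91% higher).

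With LPS, IL1RN was again higher in both knockdown lines, by 0.89 in shNR4A2 (SE 0.22, adjusted p = 0.0397, 1.85-fold) and 1.14 in shNR4A3 cells (SE 0.23, adjusted p = 0.0169, 2.21-fold). The shNT LPS libraries, at 21.3 to 30.1 TPM, lay below all shNR4A2 (32.9 to 54.1 TPM) and shNR4A3 libraries (37.3 to 67.6 TPM). It was the 1 gene called of 8 in each comparison, where 6.96% and 6.45% of all genes tested were called (4.31% and 3.99% higher). These calls depended on single libraries. The shNR4A2 call was lost without any 1 of the shNT LPS libraries or without shNR4A2 LPS replicate 1 or 3, with values of 0.69 to 1.03, and the shNR4A3 call was lost without shNT LPS replicate 2 or 3 or shNR4A3 LPS replicate 3, with values of 1.01 to 1.13. The fits that kept the replicate number as a block gave adjusted p = 9.63e-12 and 1.45e-06.

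Some monocyte markers differed between the lines together with IL1RN. The summed level of the list without LPS was 2846, 2770 and 2404 TPM in shNT, 3291, 3181 and 2925 TPM in shNR4A2 and 4084, 3581 and 3485 TPM in shNR4A3 libraries, and of the 10 markers 3 were called higher in shNR4A2 and 5 in shNR4A3 cells, with none lower, where 3.63% and 3.91% of all genes tested were called higher. With LPS 2 and 4 of the 10 were called higher and none lower, where 4.31% and 3.99% of all genes tested were. With the replicate block 6 were called higher in each line without LPS, and 5 in shNR4A2 and 6 in shNR4A3 cells with LPS, while 1 was called lower in shNR4A2 cells without and in shNR4A3 cells with LPS. Of all genes tested, the block called 1910 of 15800 and 1239 of 15322 higher without LPS, and 15.2% and 12.3% higher with LPS. LYZ, which encodes lysozyme, was higher by 1.68 (SE 0.14, adjusted p = 6.22e-05) and 2.25 (SE 0.14, adjusted p = 6.72e-07) without LPS and made up much of the summed difference. Without LYZ, the sum over the other 9 markers was 2647, 2593 and 2202 TPM in shNT, 2616, 2719 and 2216 TPM in shNR4A2 and 3044, 2874 and 2584 TPM in shNR4A3 libraries, so that both knockdown lines overlapped shNT, with shNR4A3 higher than shNT in each same-numbered pair. With LPS that sum was 1929, 1641 and 1519 TPM in shNT and 2148, 1915 and 1722 TPM in shNR4A2 libraries. These overlapped, with shNR4A2 higher than shNT in each same-numbered pair. The shNR4A3 libraries, at 2203, 1997 and 2015 TPM, all lay above shNT. Without LPS, CSF1R, the receptor of the macrophage growth factor, was also called in both lines (0.77 and 1.02). So was CD14, the LPS co-receptor (1.15 and 0.87), whereas CEBPA (-0.22 and 0.08) and TYROBP (-0.04 and 0.21) were not. With LPS, CSF1R was called in both lines (0.87 and 1.10) and CD14 in neither (1.15, adjusted p = 0.0618, and 0.93, adjusted p = 0.13). The part of these marker differences in the IL1RN result was not tested.

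**Figure D3:**
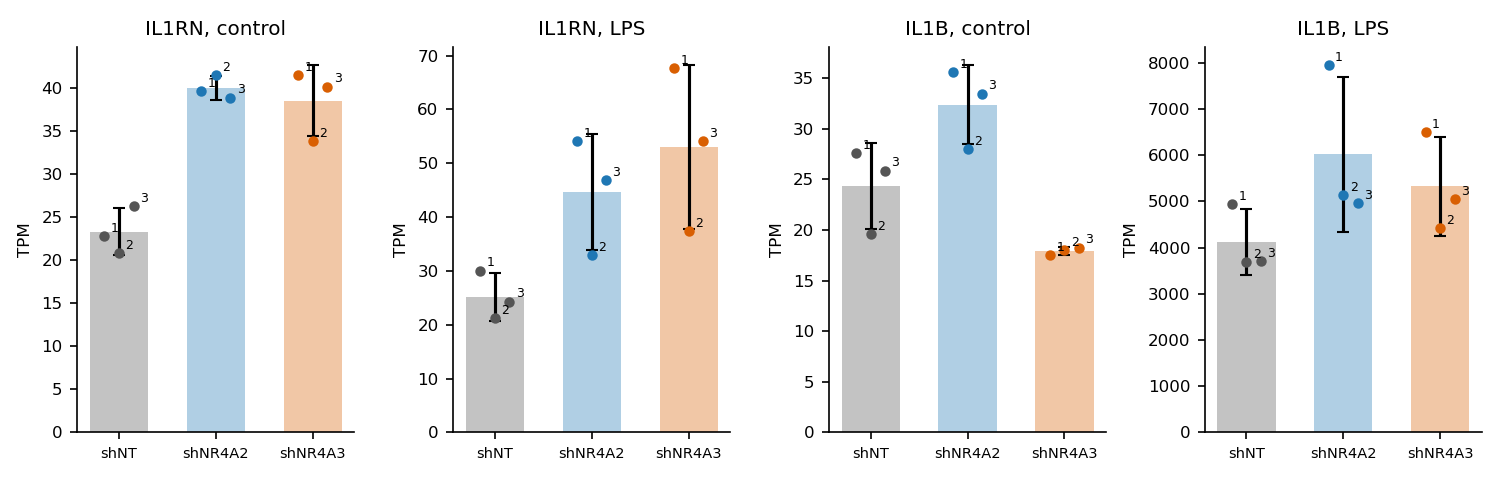
TPM of IL1RN and IL1B by line without and with LPS, with bars for the mean, error bars for the SD (n = 3) and points numbered by replicate. IL1RN in both knockdown lines lies above shNT in every library, whereas IL1B without LPS is highest in shNR4A2 and lowest in shNR4A3.

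IL1B differed between the knockdown lines before stimulation. The shNR4A2 control libraries, at 35.6, 28.0 and 33.5 TPM, lay above those of shNT (27.6, 19.6 and 25.9 TPM), and those of shNR4A3 (17.5, 18.05 and 18.3 TPM) lay below. IL1B was higher in shNR4A2 than in shNR4A3 cells by 0.80 (SE 0.13, adjusted p = 0.0043, 1.75-fold), the 1 gene called of 8 where 3.08% of all genes tested were called (1.94% higher). Against shNT, neither the difference in shNR4A2 (0.41, SE 0.14, adjusted p = 0.11) nor that in shNR4A3 (-0.39, SE 0.13, adjusted p = 0.0976) passed the test, and both did with the replicate block (0.42, adjusted p = 0.00319, and -0.38, adjusted p = 0.0325). SIGIRR also joined the calls in shNR4A2 cells under the block (0.33, adjusted p = 0.0142). In these blocked fits 23.6% (shNR4A2) and 14.8% (shNR4A3) of all genes tested were called.

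With LPS the agonists did not pass the main test against shNT and passed it with the block. IL1B differed by 0.61 in shNR4A2 (SE 0.21, adjusted p = 0.118) and by 0.44 in shNR4A3 cells (SE 0.17, adjusted p = 0.168), and with the block it was higher by 0.58 (adjusted p = 4.3e-07) and 0.43 (adjusted p = 0.000422). IL1A differed by 0.34 (adjusted p = 0.49) and 0.43 (adjusted p = 0.35), and with the block it was higher by 0.32 (adjusted p = 0.000243) and 0.41 (adjusted p = 0.000612). The shNR4A2 libraries of IL1B lay above those of shNT, while the shNR4A3 libraries and all IL1A libraries overlapped shNT. For IL1B in shNR4A2 cells the call did not rest on the block alone. There it was also called by DESeq2 (adjusted p = 0.0341), with all 18 libraries in 1 fit (adjusted p = 0.0455) and without shNR4A2 LPS replicate 2 (0.75, adjusted p = 0.0484). The edgeR fit without the low-count filter called it too (adjusted p = 1.87e-09). Its change was about the same (0.60) and only its p-value was far smaller, so that fit is not separate support. In shNR4A3 cells IL1B was also called without shNR4A3 LPS replicate 2 (0.59, adjusted p = 0.0282). The fit without the filter called IL1B (0.42, adjusted p = 1.56e-05) and IL1A (0.41, adjusted p = 0.00118) there, again at about the same changes. Leaving out 1 library moved the IL1A difference of shNR4A2 cells between -0.01 and 0.61.

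The block brought further members past the threshold with LPS. Against shNT, shNR4A2 cells gained IL18 (0.42, adjusted p = 0.0102), IL1R1 (0.50, adjusted p = 0.0181) and IL1RAP (0.19, adjusted p = 0.0494), so that 6 of 8 were called higher, where the block called 15.2% of all genes higher. Cells with the NR4A3 hairpin gained IL18BP (0.50, adjusted p = 0.0198), so that 4 of 8 were called higher, where the block called 12.3% of all genes higher. In the blocked fits the number of all genes called also grew, from 1085 to 4385 of 15590 and from 1005 to 3401 of 15578. Without the block the values were 0.41 (IL18, adjusted p = 0.163), 0.51 (IL1R1, adjusted p = 0.137), 0.18 (IL1RAP, adjusted p = 0.492) and 0.49 (IL18BP, adjusted p = 0.189).

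Between shNR4A2 and shNR4A3 cells with LPS no member was called of 9 tested, where 2.33% of all genes tested were called. IL1R1 was at 3.05, 2.59 and 3.35 TPM in shNR4A2 and 2.14, 1.73 and 1.87 TPM in shNR4A3 libraries, without overlap, a log2 fold change of 0.65 (SE 0.20, adjusted p = 0.144, with the block 0.65, adjusted p = 0.00785). IL18BP was at 4.72, 3.94 and 3.88 against 6.75, 5.87 and 5.19 TPM, also without overlap (-0.51, SE 0.19, adjusted p = 0.207, with the block -0.50, adjusted p = 0.0153). The block also called IL1RN lower in shNR4A2 cells (-0.24, adjusted p = 0.0177), where the TPM values overlapped. These 3 calls of 9 stand beside 23.6% of all genes tested that the block called there. IL36G, at 3.95, 1.07 and 3.72 against 5.62, 0.646 and 4.37 TPM, passed the filter here and did not pass the test (-0.32, SE 0.68, adjusted p = 0.857).

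IL36G with LPS was higher on average in both knockdown lines than in shNT cells (2.91 ± 1.60 and 3.55 ± 2.59 against 0.867 ± 0.373 TPM, SD, n = 3), with overlap through replicate 2. Each knockdown library lay above the shNT library of the same number, in replicate 2 at 1.07 (shNR4A2) and 0.646 (shNR4A3) against 0.522 TPM. IL36G did not reach the filter in these comparisons. DESeq2 called it in shNR4A3 cells (2.12, adjusted p = 0.0427) but not in shNR4A2 cells (1.82, adjusted p = 0.0749). EdgeR without the filter called it in both (1.78, adjusted p = 0.00293, and 2.10, adjusted p = 3.56e-05). With all 18 libraries in 1 edgeR fit it was called in neither (1.79, adjusted p = 0.125, and 2.12, adjusted p = 0.0774).

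Whether the LPS response itself differed between the lines was tested with an interaction term. In the main edgeR fits no member was called in any of the 3 interactions (shNR4A2 against shNT, shNR4A3 against shNT and shNR4A2 against shNR4A3), and 0% of all genes tested were called, with 365, 824 and 396 genes at an unadjusted p under 0.05. DESeq2 called 2, 8 and 1 genes, edgeR with the block 8, 22 and 0, and edgeR without the filter 29, 138 and 29. Leaving out shNR4A2 LPS replicate 2 gave 8 calls against shNT, and leaving out shNR4A3 LPS replicate 2 gave 44 against shNT. No member was among the calls of DESeq2 or of the fits that left out a library. The response of IL1B was larger in shNR4A3 than in shNT cells by 0.83 (approximate 95% interval 0.37 to 1.29, adjusted p = 0.791), which the block fit called (0.80, adjusted p = 0.0161) although same-numbered libraries did not all vary together there. For IL1A that difference was 1.26 (interval -0.10 to 2.63, adjusted p = 0.999). Without the filter, edgeR called both of these differences (IL1B 0.85, adjusted p = 1.23e-07, and IL1A 1.29, adjusted p = 0.017), and that of IL1B between shNR4A2 and shNR4A3 cells (-0.65, adjusted p = 0.0219). The differences were close to those with the filter and only the p-values were far smaller, so these calls are not separate support. In shNR4A2 against shNT cells the differences were 0.20 for IL1B (interval -0.33 to 0.73) and 0.87 for IL1A (interval -0.20 to 1.94), both with adjusted p = 1.00.

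The balance of agonist to antagonist transcripts was compared as a ratio of TPM. IL1B to IL1RN was 1.21, 0.939 and 0.984 in shNT control, 0.900, 0.676 and 0.862 in shNR4A2 control and 0.422, 0.534 and 0.455 in shNR4A3 control libraries. With LPS it was 164, 173 and 153 in shNT, 147, 156 and 106 in shNR4A2 and 96.2, 118 and 93.5 in shNR4A3 libraries. The ratio in shNR4A3 cells was below shNT in every library, by 2.22-fold without LPS (log2 difference -1.15, SE 0.15) and by 1.60-fold with LPS (-0.68, SE 0.12). In shNR4A2 cells it was below shNT in every library without LPS (-0.36, SE 0.17) and overlapped with LPS (-0.28, SE 0.18), where it was lower in 3 of 3 same-numbered pairs. Each comparison of 3 against 3 libraries without overlap had p = 0.1 in a two-sided exact permutation test, the smallest it allows, and 0.18 after adjustment over the 27 ratio tests, so none could reach the threshold.

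The ratio of IL18BP to IL18 was lower with LPS in every library of shNT (0.486 ± 0.0771 to 0.356 ± 0.0248, SD, n = 3) and shNR4A2 cells (0.413 ± 0.0807 to 0.269 ± 0.0564), and overlapped in shNR4A3 cells (0.550 ± 0.0864 to 0.457 ± 0.0915), where it was lower in 3 of 3 same-numbered pairs. With LPS it was lower in shNR4A2 than in shNR4A3 cells by 1.70-fold without overlap. The ratio of IL1A to IL1B in shNR4A2 control libraries (0.0346, 0.0416 and 0.0370) lay below all shNT control libraries (0.0600 to 0.0900) and below all shNR4A2 LPS libraries (0.0618 to 0.0709). In shNR4A3 control libraries it spread from 0.0161 to 0.0885. These comparisons without overlap had the same exact permutation p = 0.1.

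**Figure D4:**
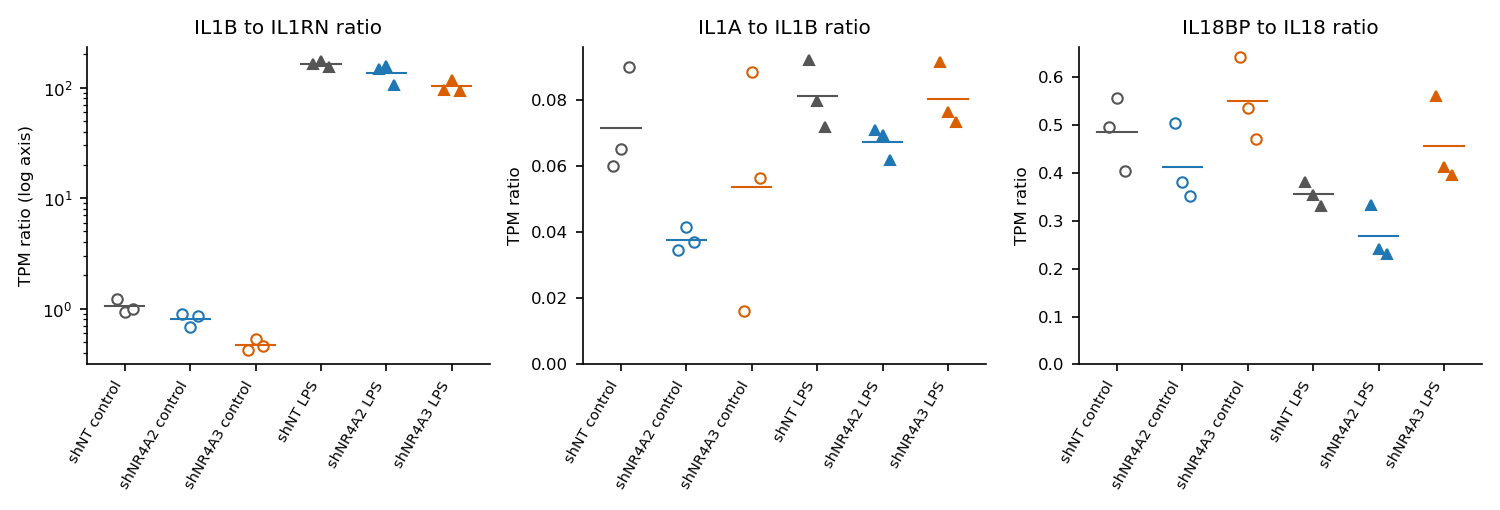
TPM ratios of IL1B to IL1RN (log axis), IL1A to IL1B and IL18BP to IL18 in each library, with a line at the mean of 3 libraries, open circles for control and filled triangles for LPS. The IL1B to IL1RN ratio is near 1 or below without LPS and between 93.5 and 173 with LPS. Its mean is lowest in shNR4A3 cells in both states, and with LPS the shNR4A3 libraries overlap those of shNR4A2.

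Of the 12 other ligands and receptors of the family, 3 had enough counts to be tested with LPS, and these were called higher in all 3 lines. Without LPS only 2, 0 and 1 of them passed the low-count filter in the 3 comparisons between lines, so they were tested largely through their LPS libraries and the count of 3 is mostly set by the filter. IL18R1, the ligand-binding chain of the IL-18 receptor, was at 0.161, 0.191 and 0.175 TPM in shNT control and 9.97, 3.60 and 9.13 TPM in shNT LPS libraries, and its log2 fold changes were 5.62, 6.96 and 6.63 in shNT, shNR4A2 and shNR4A3 cells (SE 0.48, 0.62 and 0.46). IL18RAP, its accessory chain, went from 0.296, 0.913 and 0.705 to 27.4, 14.8 and 26.0 TPM in shNT cells, with log2 fold changes of 5.40, 5.90 and 6.69 (SE 0.34, 0.41 and 0.42). The receptor chains of IL-18 thus rose where its ligand IL18 and its inhibitor IL18BP were not called. IL33, an alarmin of the family, went from 0.324, 0.448 and 1.11 to 2.52, 2.10 and 4.25 TPM in shNT cells (2.47, SE 0.42, adjusted p = 0.000597) and was called in the other lines too (2.72 and 2.58). Against shNT with LPS, the values of IL18R1, IL18RAP and IL33 were 0.91, 0.51 and 0.94 in shNR4A2 and 0.78, 0.70 and 0.15 in shNR4A3 cells, and none was called. The block called all 3 higher in shNR4A2 and 2 in shNR4A3 cells, where it called 15.2% and 12.3% of all genes higher.

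These receptor genes share a chromosomal neighbourhood with 2 of the members. Within 100 kb of the stretch from IL1R2 to IL18RAP on chromosome 2, 5 of 15 genes were tested with LPS, and IL18R1, IL18RAP and AC007278.1 were called higher in all 3 lines while IL1R1 and MAP4K4 were not, where 11.6%, 9.23% and 13.1% of all genes tested were called higher. The 3 called genes had few counts without LPS and passed the filter through their LPS libraries. With the replicate block, MAP4K4 was also called higher in shNR4A2 and shNR4A3 cells, so that 4 of 5 were called in each. IL1R1 was not called there (adjusted p = 0.0963 and 0.562). In these fits the block called 2184 of 15772 and 2849 of 15342 genes higher. AC007278.1 lies inside IL18RAP on the same strand and shares none of its annotated exon bases, and whether its reads came from unspliced IL18RAP RNA was not tested. In the other cluster, from IL1A to IL1RN, 6 of 21 genes were tested. Besides IL1A and IL1B, CKAP2L, a mitotic spindle gene next to IL1A, rose in all lines (0.49, 0.56 and 0.64, SE 0.10, 0.12 and 0.10), and PSD4, which lies beyond IL1RN, fell in shNT (-0.33) and shNR4A3 cells (-0.34). In shNR4A2 cells, 0 of the 6 were called lower in the main fit and 1 was with the replicate block. The block called 2567 of 15772 genes lower there. IL37, IL36A, IL36B, IL36RN and IL1F10, which lie between IL1B and IL1RN, did not reach the filter.

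**Figure D5:**
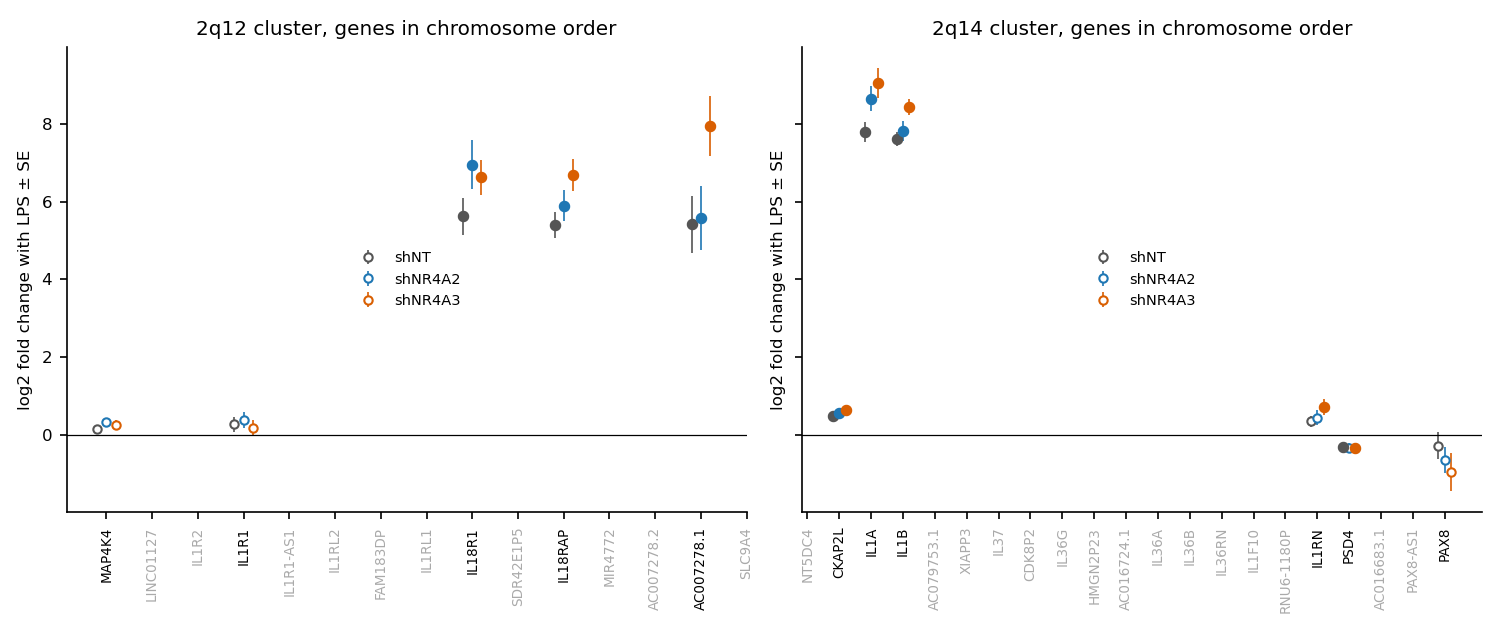
Log2 fold change with LPS and its SE for the genes of the 2 clusters on chromosome 2, in chromosome order and coloured by line, with filled points for adjusted p under 0.05 and grey names for genes under the low-count filter. IL1A and IL1B stand out from their tested neighbours in the right panel, as IL18R1, IL18RAP and AC007278.1 do in the left.

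The genes that mature or release these cytokines moved less, and in both directions. Of 13 listed, 11 were tested with LPS. The shNT cells had 1 call upward and 3 downward, the shNR4A2 cells 2 upward and 2 downward, and the shNR4A3 cells 3 upward and 5 downward, where 24.9%, 19.3% and 28.1% of all genes tested were called. NLRC4, an inflammasome sensor, fell by 2.24, 1.93 and 1.86 in shNT, shNR4A2 and shNR4A3 cells, and CARD8 by 0.39, 0.48 and 0.39, while CASP4, an inflammatory caspase that binds LPS in the cytosol, rose by 0.32, 0.44 and 0.52. Between the lines, those called were all higher in the knockdowns. CASP1, which cleaves pro-IL-1β and pro-IL-18, was higher in shNR4A3 than in shNT cells by 0.43 (SE 0.12, adjusted p = 0.0467) without and 0.94 (SE 0.15, adjusted p = 0.00626) with LPS, and NLRC4 by 1.14 (SE 0.28, adjusted p = 0.0272) and 1.51 (SE 0.34, adjusted p = 0.0306). In shNR4A3 cells 4 of 11 were called higher without LPS, among them NLRP3 (0.42) and PYCARD (0.36), and 4 of 12 with LPS, among them CASP5 (2.57) and MEFV (0.68), where 3.91% and 3.99% of all genes tested were called higher. CASP5 had 3, 5 and 8 counts in shNT LPS and 44, 8 and 33 in shNR4A3 LPS libraries. It thus passed the filter largely through the shNR4A3 libraries, and the counts out of 12 are partly set by the filter. In shNR4A2 cells 1 was called, MEFV (0.65 without and 0.85 with LPS). With the replicate block 5 of 11 were called higher without LPS and 6 of 11 with LPS in shNR4A2 cells, and 6 of 11 and 8 of 12 in shNR4A3 cells, with none lower. The block called 23.6% and 14.8% of all genes in the comparisons without LPS and 15.2% and 12.3% higher in those with LPS. For LPS against control, the block gave 3 upward and 5 downward in shNT, 3 and 3 in shNR4A2, and 5 and 5 in shNR4A3 cells. Of all genes tested, it called 5029 of 15711, 4751 of 15772 and 6040 of 15342 there.

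All 17 listed genes of the signalling pathway downstream of the receptors were tested. With LPS 6, 5 and 7 were called higher in shNT, shNR4A2 and shNR4A3 cells and 2 lower in each, where 11.6%, 9.23% and 13.1% of all genes tested were called higher and 24.9%, 19.3% and 28.1% were called in either direction. The largest rises were those of NFKBIZ, an atypical IκB protein (7.40, 7.30 and 7.35), ZC3H12A, an RNase that degrades inflammatory transcripts (5.38, 5.36 and 5.63) and IRAK2, a kinase of the receptor complex (4.64, 4.91 and 4.69), and PELI1 and TAB2 rose in all lines too. TOLLIP, an adaptor that restrains IRAK1, and TAB1 fell in all lines. Against shNT, TAB2 was higher with LPS in shNR4A2 (0.67, SE 0.11, adjusted p = 0.0097) and shNR4A3 cells (0.75, SE 0.14, adjusted p = 0.0138). IRAK3, an inhibitory kinase homologue, was lower in shNR4A2 cells without LPS (-0.41, SE 0.10, adjusted p = 0.0365), and IRAK2, TAB2 and TOLLIP were higher in shNR4A3 cells without LPS (0.62, 0.36 and 0.35). These calls were 1 of 17 in shNR4A2 and 3 of 17 in shNR4A3 cells without LPS, and 1 of 17 in each with LPS. Of all genes tested, 6.45% and 7.23% were called without LPS and 6.96% and 6.45% with LPS. With the replicate block, 5 of 17 were called higher and 1 lower in shNR4A2 cells both without and with LPS, and 4 and 7 were called higher in shNR4A3 cells without and with LPS, with none lower. The block called 23.6% and 14.8% of all genes without LPS, and 4385 of 15590 and 3401 of 15578 with LPS.

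The genes most like each member were those with the smallest root mean square difference in log2 CPM, centred over the 6 group means, among 13948 genes. For IL1B these were the chemokine genes CCL3 (0.23), CXCL1 (0.25) and CXCL2 (0.31), and for IL1A they were CXCL2 (0.31), SHROOM3 (0.33) and IL1B itself (0.33), against ranges of 8.58 and 8.95 for the members over the groups. IL1RN, with a range of 1.42, was nearest to LPXN (0.08), ALOX5AP (0.12), which encodes the activator of 5-lipoxygenase, and FILIP1L (0.12). IL36G was nearest to TNFRSF18 (0.16). IL18, IL1R1, IL1RAP, IL18BP and SIGIRR ranged over less than 1 log2 unit, where many genes are about as near, and IL1R2, with its few counts, was not compared.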

How the data were processed

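Poly(A) RNA of 18 libraries (6 groups of 3) was sequenced as paired ends. The submitters' processing notes name the read trimmer Trimmomatic 0.36, the aligner STAR 2.5.2b, the counter featureCounts of Subread 1.5.2 and the build GRCh38. The deposited files hold the authors' raw counts per gene and gene length. The annotation release and strand setting are not given in the sources used here. Gene symbols were taken from GENCODE 29 (56898 of 57500 genes), whose positions for the 10 members were the same. No library was identical to another.

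Counts were tested with edgeR 4.0.16 (quasi-likelihood, TMM, filterByExpr) in R 4.3.3, on 6 libraries per comparison and 12 per interaction, with Benjamini-Hochberg adjustment over all genes tested and a threshold of 0.05. TPM were computed from counts and gene lengths, and ratios of TPM were compared by exact permutation (scipy 1.17.1). TPM do not carry the TMM scaling of the fits, so a TPM ratio and a fitted fold change of the same gene can differ. Approximate intervals are 1.96 SE either side. Alternatives were DESeq2 1.42.0, RLE scaling, no filter, a replicate block, 1 fit of all libraries and leaving out each library. Same-numbered libraries deviated together (residual correlation above 0.1 for every pair) in 8 of 9 pairwise comparisons and 1 of 3 interactions, LPS in shNT cells being the pairwise exception, where the lowest was 0.05. The fits were tested on simulated counts with the same fixed dispersion for all genes. For LPS in shNT cells, 97% of log2 changes of 1 and 100% of those of 2 were recovered, with 5.29% false calls. For the interaction of shNR4A3 with shNT, 68% and 100% were recovered, with 6.15% false calls. A difference in response near 1 can thus be missed by the interaction fits. Genes named are the members, NR4A2 and NR4A3, fixed lists of other family members, maturation, signalling and cell marker genes, the called genes of the 2 clusters, and the 3 genes most like each member (mean of at least 1 CPM, prior count 2). The members and lists were chosen with earlier results of these data known.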

Additional observations from a re-analysis of the deposited data

How the results depend on the processing

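The number of members called was within 1.5 times the main count under RLE scaling in all 12 comparisons and under the other settings except as follows. For shNR4A2 against shNT with LPS, the count of 1 became 2 with DESeq2, 3 without the low-count filter, 6 with the replicate block and 2 with all 18 libraries in 1 fit, and it ranged from 0 to 3 when single libraries were left out. For shNR4A3 against shNT with LPS, the count of 1 became 2 with DESeq2, 4 without the filter and 4 with the block, and ranged from 0 to 3. Without LPS, the block gave 3 (shNR4A2 against shNT) and 2 (shNR4A3 against shNT) in place of 1. For shNR4A2 against shNR4A3 with LPS the block gave 3 of 9 in place of 0, where it called 23.6% of all genes tested. In the interaction of shNR4A3 with shNT, 2 were called without the filter and 1 with the block, and in that of shNR4A2 with shNR4A3 1 was called without the filter. For LPS in shNR4A2 cells, leaving out single libraries gave counts of 2 to 4. Beside the calls given with the results, the block changed no other call of a member. It called IL1RN with LPS in shNT cells (0.33, adjusted p = 0.0255), where the pairing was not met. The cause of these differences was not tested.

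The IL1RN difference between shNR4A2 and shNR4A3 without LPS (0.01) turned to -9.00e-05 with DESeq2 and -0.00218 with all 18 libraries in 1 fit, and ranged from -0.104 to 0.0855 without single libraries. Other uncalled differences that changed sign when a library was left out were IL1A in shNR4A2 against shNT with LPS (-0.0112 to 0.609), IL1A in shNR4A2 against shNR4A3 without (-0.13 to 0.81) and with LPS (-0.44 to 0.24), IL1B in shNR4A2 against shNR4A3 with LPS (-0.12 to 0.38), and the interactions of shNR4A2 with shNT for IL1B (-0.0934 to 0.361) and IL1RN (-0.0866 to 0.317) and of shNR4A2 with shNR4A3 for IL1A (-0.896 to 0.0276). Of 54 further member differences that no full-sample setting called, 25 changed sign without some library and 1 was called (IL18BP with LPS in shNT cells). Leaving out the division by gene length cannot change the 27 ratio differences, since each gene has 1 length in all libraries, and so tests nothing. Low counts limit IL36G, IL1R2 and IL1A in control libraries.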
